A study of Mus musculus with 16 samples.

Results

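This account describes the genes of the nuclear pore and of the receptors that carry cargo through it, across 6 sorted gates of antigen-specific mouse B cells. Members were chosen by symbol alone: nucleoporins named Nup with a number, importin alpha genes (Kpna), the importin beta gene Kpnb1, and the numbered importins (Ipo), transportins (Tnpo) and exportins (Xpo, with Xpot). Of 23234 named genes in the deposited table, 45 matched, and 43 reached at least 1 FPKM (fragments per kilobase of transcript, scaled to the library's fragments, so a level corrected for length and depth) in at least 2 of 16 libraries. Kpna7 and Nup62cl did not reach that level and were left out. The same minimum kept 11266 genes in all, and these were tested together. Because the minimum could be met in any libraries, a member low in every gate but 1 could still enter.

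All libraries came from the same kind of cell. Donor B cells of C57BL/6 background carried the B1-8hi heavy chain knock-in, which gives affinity for the hapten NP, and a Bcl6-YFP knock-in reporter, each on 1 allele. Recipients were CD45.1+ mice given NP-CGG with alum by intraperitoneal injection. Splenocytes from 9 recipients were combined at day 10 and sorted for CD45.2+ NP+ CD138- IgG1+ cells, so every gate holds transferred, class-switched cells from 1 time point. The LZ gate (n = 3 libraries) took CD38- CD86hi CXCR4lo light zone cells of the germinal centre. Fraction 2 (n = 2) and Fraction 3 (n = 3) were light zone cells with high Bcl6-YFP that differed in CD69. Fraction 2 was CD69hi and is labelled as prone to recycling, and Fraction 3 was CD69lo and is labelled as under selection. The remaining gates were CD38+ GL7-. Fraction 5 (n = 3) was Bcl6-YFPhi Efnb1hi and is labelled pro-memory, Fraction 6 (n = 2) was Bcl6-YFPlo Efnb1hi and is labelled pre-memory, and Fraction 7 (n = 3) was Bcl6-YFPlo Efnb1lo and is labelled mature memory. The labels do not say whether libraries of a gate came from separate pools, so p-values reflect only how far libraries of a gate scattered, and that scatter may be technical.

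The nuclear pore is a ring-shaped channel through the nuclear envelope. A scaffold of an outer ring (the Y complex) and an inner ring holds nucleoporins rich in phenylalanine-glycine (FG) repeats in the channel, with filaments on the cytoplasmic face and a basket on the nuclear face. Importins bind cargo in the cytoplasm and release it in the nucleus when they meet Ran bound to GTP, and exportins bind cargo together with Ran-GTP and release it after GTP hydrolysis. Importin alpha proteins are adaptors that join a classical nuclear localisation signal to importin beta. Cells build new pores when they grow and divide, and the nuclear envelope is taken apart and rebuilt in mitosis.

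FPKM summed to between 416741 and 492578 per library, and between 10133 and 10552 genes reached 1 FPKM. Relative to LZ library 1, depth as judged by the step between low values was 0.917 to 1.21, while the true number of reads is unknown. All 7 B cell markers were at or above 5 FPKM in all 16 libraries. Of 8 T cell markers found, 5 stayed under 1 FPKM in every library, as did 4 of 8 markers of macrophages and monocytes. The T cell marker Lck had 6.20 to 7.86 FPKM in Fraction 7 and 19.2 to 36.5 FPKM elsewhere, and Thy1 and Cd5 had at most 2.05 FPKM. On the second list, Cd68 had 6.17 to 13.5 FPKM over all libraries, and Lyz2 and Emr1 reached 5.70 and 2.46 FPKM. No marker on these lists was at 0 in all libraries. Itgam, a myeloid integrin on the second list, had 12.8, 8.22 and 12.5 FPKM in Fraction 7 and at most 1.53 FPKM elsewhere. The sum of 5 neutrophil markers was 23.8 FPKM in LZ library 2, 38.3 in Fraction 3 library 3, 15.2 in Fraction 5 library 2 and 34.5 in Fraction 7 library 3, and at most 7.54 in the other libraries. That of 5 erythroid markers was between 23.8 and 87.0 FPKM and overlapped between all gates. Summed FPKM of 6 germinal centre markers averaged 660 ± 39.8 in LZ, 583 ± 12.4 in Fraction 2, 759 ± 55.7 in Fraction 3, 758 ± 8.26 in Fraction 5, 315 ± 10.9 in Fraction 6 and 75.9 ± 10.3 in Fraction 7 (SD). Fraction 7 libraries 2 and 3 stood apart by plasma cell transcripts. The sum of 7 plasma cell markers was between 139 and 542 FPKM in Fraction 7, and Sdc1, which encodes the CD138 used to sort these cells out, had 0.502, 4.44 and 4.51 FPKM there. Changes in Fraction 7 are therefore also described without those libraries. Such a fit leaves Fraction 7 with 1 library, as leaving out any library of Fraction 2 or Fraction 6 does there, and the lone library is then assumed to vary like those of the other gates. Fraction 7 library 1, the one with the lowest plasma cell sum of the 3, was the highest of its gate for 32 of the 43 members, and library 3 the lowest for 30. Such counts were not made over all genes. The size factor of a library is its typical level over expressed genes, by median ratios. It ran the same way, at 0.987, 0.924 and 0.882 in Fraction 7 libraries 1 to 3. The part of these other cell types in the members' levels was not tested.

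Most members shared an order of levels across the gates. Fraction 2 had the highest mean for 37 of 43 members, Fraction 7 for 3 (Ipo13, Xpo5 and Xpo6), LZ for 2 (Ipo8 and Nup88) and Fraction 3 for 1 (Nup62-il4i1). Fraction 7 had the lowest mean for 28 members, Fraction 5 for 7, Fraction 6 for 6 and Fraction 3 for 2. Gates were not ranked in this way for all tested genes. Size factors leaned in the same direction, at 1.059 and 1.063 in Fraction 2 and 0.882 to 0.987 in Fraction 7. The ratio of the highest to the lowest gate mean ran between 1.13 for Ipo8, an importin of the beta family, and 6.92 for Kpna2, an importin alpha. The summed FPKM of the 43 members averaged 1109 ± 38.7 in LZ, 1426 ± 11.4 in Fraction 2, 1078 ± 38.6 in Fraction 3, 774.9 ± 60.6 in Fraction 5, 661.7 ± 24.5 in Fraction 6 and 593.2 ± 48.3 in Fraction 7 (SD). Fraction 2 therefore lay above every other gate without overlap, while the ranges of LZ (1064 to 1132) and Fraction 3 (1038 to 1115) overlapped. Fractions 6 and 7 nearly met, with libraries between 547.8 and 643.9 FPKM in Fraction 7 and at 644.4 and 679 FPKM in Fraction 6. In bulk libraries such as these, fewer cells that express a gene and less of its RNA per cell cannot be told apart.

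**Figure D1:**
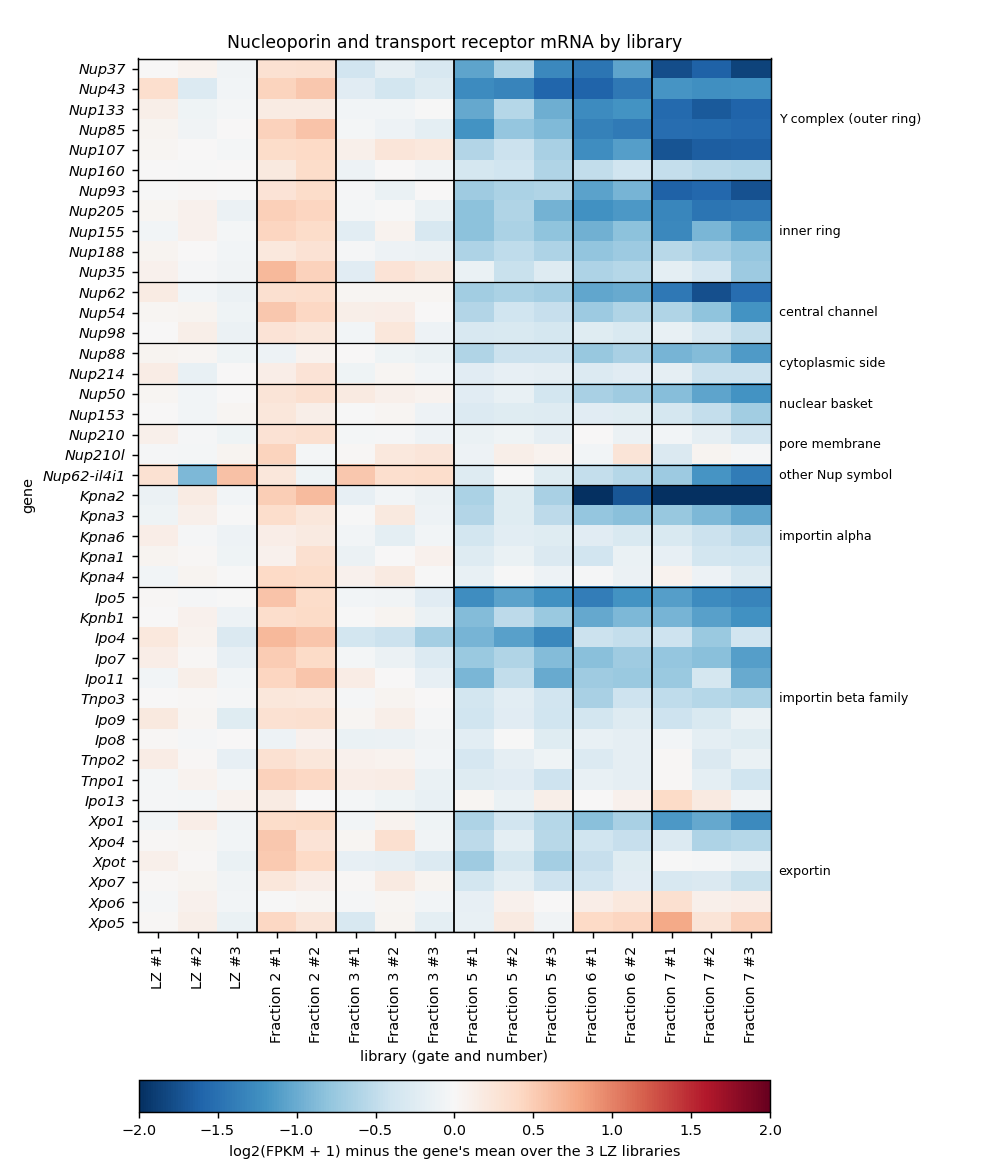
Each row is 1 of the 43 members, grouped by role, and each column 1 of the 16 libraries. Colour gives log2(FPKM + 1) minus the gene's mean over the 3 LZ libraries, and colours stop at 2 in either direction, which Kpna2 passes in Fraction 7. Most rows are reddest in Fraction 2 and bluest in Fraction 7, with Xpo5 and Xpo6 among the exceptions.

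Cell cycle transcripts also averaged highest in Fraction 2 and lowest in Fraction 7. LZ averaged below Fraction 3 in both cell cycle sums given here, but above it in the members' sum. Summed FPKM of 7 S phase markers averaged 1012 ± 46.9 in LZ, 1216 ± 11.2 in Fraction 2, 1057 ± 19.9 in Fraction 3, 463.6 ± 65.8 in Fraction 5, 208 ± 6.18 in Fraction 6 and 142.6 ± 2.48 in Fraction 7 (SD). For 7 mitosis markers the sums averaged 399.6 ± 32.1, 581.3 ± 43.6, 433 ± 34.5, 263.7 ± 52.9, 63.4 ± 7.08 and 36.6 ± 9.31 FPKM in the same gates and order (SD). Of the 14 cycling markers together, 2 rose and 0 fell in Fraction 2 against Fraction 3, and all 14 fell in Fraction 5 against Fraction 3, in Fraction 6 against Fraction 5, in Fraction 7 against Fraction 6 and in Fraction 7 against LZ. Among all tested genes, 9.17% rose in the first of these comparisons, and 19.5%, 10.4%, 13.9% and 38.0% fell in the others in turn. The part of cycling cells in the members' levels was not tested.

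**Figure D2:**
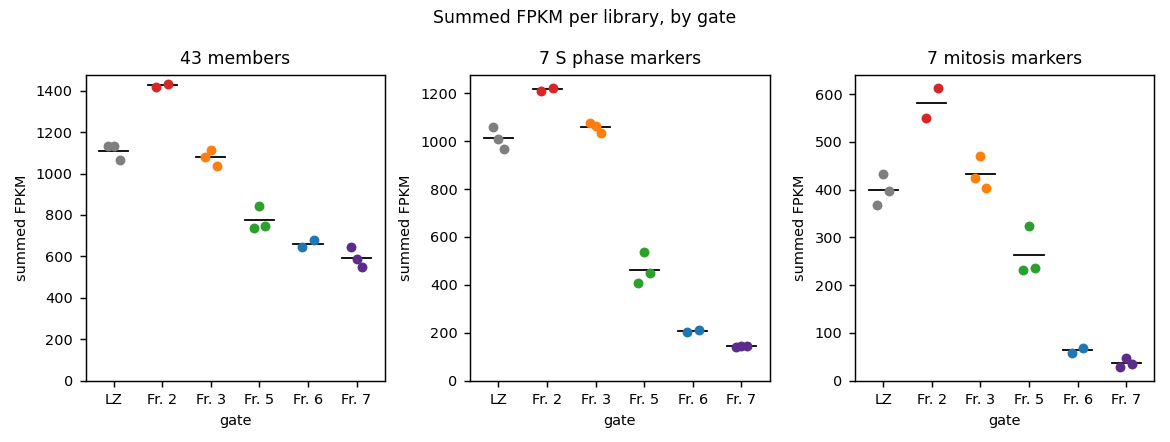
Points give summed FPKM of 1 library and lines the gate mean, for the 43 members, 7 S phase markers and 7 mitosis markers, with gates on the horizontal axis. The members' sum averaged 1426 FPKM in Fraction 2 and 593.2 in Fraction 7, while the mitosis sum averaged 581.3 and 36.6 FPKM in the same gates.

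Changes below are differences of log2(FPKM + 1) from limma, fitted over all genes with Benjamini-Hochberg adjustment and a threshold of 0.05. They understate the change of genes at low FPKM. Fraction 2 was set against Fraction 3 to compare CD69hi with CD69lo light zone cells. Of 43 members, 20 rose and 0 fell, which is 46.5% of the members, against 9.17% of all tested genes that rose and 6.45% that fell. The members' median change was 0.30 and that of all genes 0.04, and 42 members had a positive change. The split over all genes depended on scaling: under quantile normalization, which makes the value distribution equal in every library, 18 members rose and 0 fell, with 7.69% of all genes higher and 9.24% lower. Ipo4, a transport receptor known for histone import, rose most, by 1.09 (SE 0.16, adjusted p = 0.00124). Leaving out Fraction 2 library 1 gave 9 calls, leaving out Fraction 2 library 2 gave 7 and leaving out Fraction 3 library 3 gave 10, and 6 members kept the call whichever library was left out (Ipo4, Ipo5, Nup205, Nup43, Nup85 and Xpot).

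Fraction 5 was set against Fractions 3 and 2 to compare pro-memory cells with light zone cells that share high Bcl6-YFP. Against Fraction 3, 0 members rose and 30 fell (69.8%), while 9.99% of all tested genes rose and 19.5% fell. The members' median change was -0.41 and that of all genes -0.03. Against Fraction 2, 0 members rose and 37 fell (86.0%), while 16.6% of all tested genes rose and 27.1% fell, with medians of -0.74 for the members and -0.04 for all genes. Both comparisons share the 3 Fraction 5 libraries. Under quantile normalization 26 and 37 members fell and 0 rose, with 14.9% and 24.1% of all genes higher and 14.8% and 22.0% lower. Of these calls, 24 and 35 held whichever library was left out, and those that did not were Ipo9, Kpna2, Nup98, Nup153, Tnpo1 and Xpot against Fraction 3, and Kpna1 and Nup214 against Fraction 2. The members that did not pass against Fraction 2 were Ipo8, Ipo13, Nup210l, Nup62-il4i1, Xpo5 and Xpo6. Fraction 5 library 2 was the highest of its gate for 36 of the 43 members, and it was also the highest of its gate in S phase and mitosis markers, at 535.5 and 324.8 FPKM, and in neutrophil markers. Its size factor was the highest of the gate as well, at 1.023 against 0.976 and 0.998, and the count was not made over all genes.

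The steps among the CD38+ gates were smaller. In Fraction 6 against Fraction 5, which differ in Bcl6-YFP, 1 member rose (Ipo4) and 8 fell, or 2.33% and 18.6% of the members, while 7.07% of all tested genes rose and 10.4% fell. The medians were -0.06 and 0.00, and under quantile normalization 3 members rose and 9 fell, with 9.39% of all genes higher and 10.7% lower. The calls of Kpna2 and Nup107 held whichever library was left out, and the count fell to 4 without either Fraction 6 library. The step to Fraction 7 from Fraction 6, which differ in Efnb1, gave few calls: 0 members rose and 8 fell (18.6%), while 7.37% of all tested genes rose and 13.9% fell, so the members' share lay near that of all genes. The medians were -0.09 and -0.05, and under quantile normalization 1 member rose and 7 fell, with 10.7% of all genes higher and 13.0% lower. Nup107, Nup62 and Nup93 kept the call whichever library was left out. Fewer members passed without Fraction 6 library 2, and 5 passed when Fraction 7 library 3 was left out. Without both plasma-marked libraries, 2 and 3 of Fraction 7, the medians were -0.0019 for the members and 0.010 for all genes.

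Over the whole path, Fraction 7 against LZ, 1 member rose (Xpo5) and 34 fell, the falls being 79.1% of the members, while 24.1% of all tested genes rose and 38.0% fell. The members' median change was -0.57 and that of all genes -0.10. Quantile normalization moved these medians to -0.44 and 0.02, and gave 3 rises and 30 falls among the members, with 30.7% of all genes higher and 30.8% lower. Of the 35 calls, 30 held whichever library was left out, the exceptions being Ipo9, Kpna1, Nup35, Nup98 and Nup210. Without Fraction 7 libraries 2 and 3, and so with 1 library of that gate, the changes of Nup98 and Nup210 shrank to -0.16 and -0.05. Fraction 7 against Fraction 5 was added after the values were seen. There, 4 members rose (Ipo4, Xpot, Xpo5 and Xpo6) and 18 fell, while 19.1% of all tested genes rose and 28.5% fell, with medians of -0.14 and -0.05. Under quantile normalization this comparison gave 4 rises and 15 falls, with 24.0% of all genes higher and 25.1% lower. Without Fraction 7 libraries 2 and 3, the changes of Kpnb1, Nup153 and Nup62-il4i1 shrank to -0.23, -0.09 and -0.55.

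**Figure D3:**
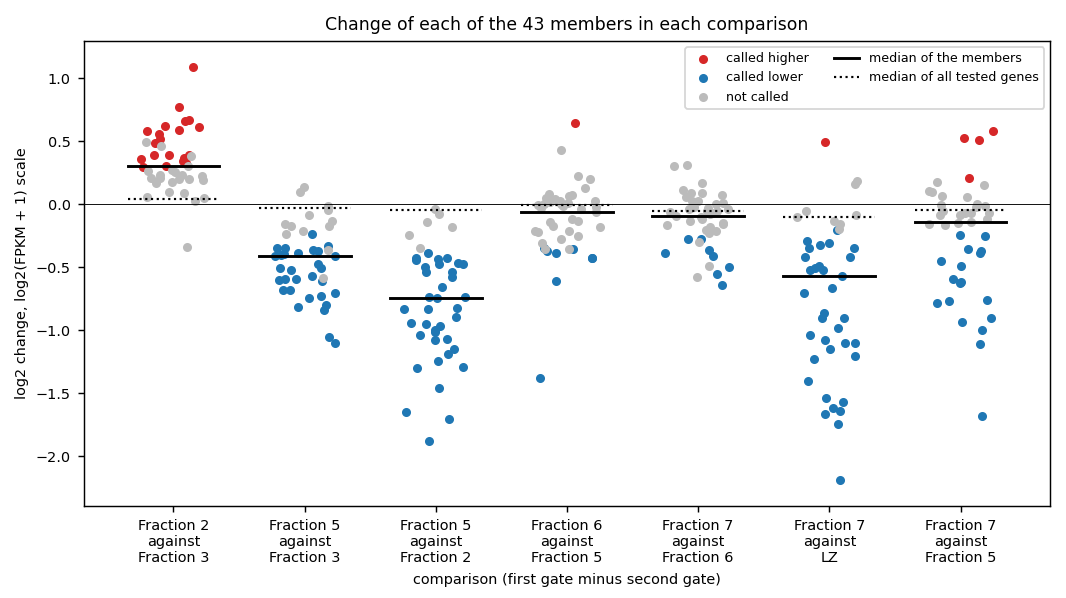
Each point is 1 of the 43 members in 1 of 7 comparisons, and the vertical axis is the change in log2(FPKM + 1), first gate minus second. Red and blue mark members past the adjusted threshold of 0.05, and solid and dotted lines mark the medians of the members and of all tested genes. The lines lie furthest apart in Fraction 5 against Fraction 2, at -0.74 and -0.04.

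By role, the outer ring comes first. The 6 members of the Y complex, the scaffold that pores are built on, all fell in Fraction 5 against Fraction 3, in Fraction 5 against Fraction 2 and in Fraction 7 against LZ, with median changes of -0.78, -1.16 and -1.58. In Fraction 2 against Fraction 3, 4 of the 6 rose. Among all tested genes, 19.5%, 27.1% and 38.0% fell in the first 3 of these comparisons in turn, and 9.17% rose in the last. These 6 are the Y complex subunits whose symbols fit the naming rule, and not the whole complex. Nup107, which anchors the stem of the Y, had 27.9, 27.4 and 26.4 FPKM in LZ, 35.4 and 36.3 in Fraction 2, 29.3, 32.5 and 31.5 in Fraction 3, 17.7, 20.02 and 16.9 in Fraction 5, 10.9 and 12.2 in Fraction 6, and 7.57, 7.98 and 8.1 in Fraction 7. Each of the last 3 gates lay below the one before without overlap. It fell by 0.74 in Fraction 5 against Fraction 3 (SE 0.07, adjusted p = 1.51e-05), by 0.61 in Fraction 6 against Fraction 5 (SE 0.08, adjusted p = 0.000119), by 0.50 in Fraction 7 against Fraction 6 (SE 0.08, adjusted p = 0.000544) and by 1.67 in Fraction 7 against LZ (SE 0.07, adjusted p = 3.03e-10), all with limma. In Fraction 2 against Fraction 3 its change was 0.20 (adjusted p = 0.112).

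Nup133, the partner of Nup107 in the stem, was at a lower level, and it too was highest in Fraction 2 and lowest in Fraction 7. It had 12.1, 10.3 and 10.7 FPKM in LZ, 12.5 and 12.4 in Fraction 2, 10.6, 10.6 and 11 in Fraction 3, 4.94, 7.09 and 5.11 in Fraction 5, 4.02 and 4.25 in Fraction 6, and 3.07, 2.75 and 2.95 in Fraction 7. Its falls were 0.82 in Fraction 5 against Fraction 3 (adjusted p = 9.5e-05) and 1.62 in Fraction 7 against LZ (adjusted p = 1.58e-08). The fall of 0.39 in Fraction 7 against Fraction 6 (adjusted p = 0.0318) was lost without either Fraction 6 library, and without Fraction 7 library 2 or 3 or both.

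Among the Y members, Nup43 changed most in Fraction 2 against Fraction 3, followed by Nup85 and Nup37 at near-equal size (0.62 and 0.61). Nup43 had 15.5, 9.83 and 11.6 FPKM in LZ, 16.8 and 18 in Fraction 2, 10.2, 9.16 and 9.95 in Fraction 3, 4.5, 4.25 and 3.34 in Fraction 5, 3.31 and 3.83 in Fraction 6, and 4.76, 4.57 and 4.67 in Fraction 7. It rose by 0.77 in Fraction 2 against Fraction 3 (SE 0.15, adjusted p = 0.0045) and fell by 1.10 and 1.88 in Fraction 5 against Fractions 3 and 2 (adjusted p = 5.45e-05 and 7.2e-07), the largest fall of any member in each of those comparisons. Unlike Nup107, its Fraction 7 libraries all lay above its Fraction 5 and Fraction 6 libraries, although the change against Fraction 6 was 0.31 with an adjusted p of 0.163.

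Nup85 had 43.4, 39.8 and 41.7 FPKM in LZ, 57.5 and 62.2 in Fraction 2, 40.5, 38.7 and 36.1 in Fraction 3, 17.6, 24 and 22 in Fraction 5, 15.8 and 15.1 in Fraction 6, and 13.9, 13.7 and 13.3 in Fraction 7. It rose by 0.62 in Fraction 2 against Fraction 3 (adjusted p = 0.00212) and fell by 1.46 in Fraction 5 against Fraction 2 (adjusted p = 3.62e-07). Its fall of 0.43 in Fraction 6 against Fraction 5 (adjusted p = 0.0102) was lost without Fraction 6 library 2. Nup37 had 19.7, 20.6 and 18.7 FPKM in LZ, 24.5 and 24.8 in Fraction 2, 14.8, 17.2 and 15.5 in Fraction 3, 8.96, 12.6 and 7.42 in Fraction 5, 6.49 and 8.91 in Fraction 6, and 5.07, 5.74 and 4.69 in Fraction 7. It fell by 1.75 in Fraction 7 against LZ (SE 0.15, adjusted p = 2.21e-07). Nup160 moved least of the Y members, with a fall of 0.52 in Fraction 7 against LZ, although it too passed the test.

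The inner ring, which joins the scaffold to the membrane and to the channel, held 5 members. All 5 members fell in Fraction 5 against Fraction 2 and in Fraction 7 against LZ, 4 fell in Fraction 5 against Fraction 3 and 4 rose in Fraction 2 against Fraction 3, Nup35 being the exception in both. Among all tested genes, 27.1%, 38.0% and 19.5% fell in the first 3 of these comparisons in turn, and 9.17% rose in the last. Nup93, which holds the inner ring and the channel nucleoporins together, had 37.1, 38 and 37.3 FPKM in LZ, 45.4 and 48.5 in Fraction 2, 36.8, 34.2 and 37.5 in Fraction 3, 22.6, 23.9 and 24.3 in Fraction 5, 17.3 and 19.2 in Fraction 6, and 11.6, 11.9 and 10.6 in Fraction 7. LZ and Fraction 3 overlapped, and every other pair of gates was separate. Nup93 fell by 0.64 in Fraction 7 against Fraction 6 (SE 0.07, adjusted p = 3.6e-05), the largest fall of a member there, and by 1.64 in Fraction 7 against LZ (SE 0.07, adjusted p = 1.82e-10). Its rise of 0.37 in Fraction 2 against Fraction 3 (adjusted p = 0.00543) was lost without Fraction 2 library 2, and its fall of 0.36 in Fraction 6 against Fraction 5 (adjusted p = 0.00395) without Fraction 6 library 1.

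The large scaffold proteins Nup205, Nup188 and Nup155 differed in size of change. Nup205 had 26.8, 27.9 and 23.9 FPKM in LZ, 36.8 and 35.7 in Fraction 2, 25.4, 26.1 and 23.7 in Fraction 3, 14.3, 16.9 and 13.1 in Fraction 5, 10.7 and 11.3 in Fraction 6, and 9.93, 8.83 and 9.02 in Fraction 7. In Fraction 7 against LZ, Nup205 fell by 1.40, Nup155 by 1.10 and Nup188, a paralogue of Nup205, by 0.67. Nup205's fall of 0.39 in Fraction 6 against Fraction 5 (adjusted p = 0.0148) was lost without Fraction 5 library 2 or either Fraction 6 library. Nup35, which binds membrane, fell by 0.42 in Fraction 7 against LZ.

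All 3 members among the FG nucleoporins of the channel fell in Fraction 5 against Fraction 3, in Fraction 5 against Fraction 2 and in Fraction 7 against LZ. Among all tested genes, 19.5%, 27.1% and 38.0% fell there in turn, and 3 genes are too few to describe a role. Nup62 had 71.9, 61.5 and 59.2 FPKM in LZ, 79.98 and 81.1 in Fraction 2, 65.5, 65.8 and 65.4 in Fraction 3, 39.1, 40.9 and 39.6 in Fraction 5, 30.8 and 31.4 in Fraction 6, and 23.2, 18.3 and 21.5 in Fraction 7. It fell by 0.55 in Fraction 7 against Fraction 6 (SE 0.09, adjusted p = 0.000801) and by 1.57 in Fraction 7 against LZ, where Nup54 fell by 0.86. Nup62-il4i1 is a readthrough transcript that shares sequence with Nup62, so the split of fragments between them is uncertain. It had 14, 5.52 and 17.3 FPKM in LZ, 13.2 and 10.4 in Fraction 2, 16.6, 14.3 and 14.5 in Fraction 3, 9.16, 11 and 9.24 in Fraction 5, 7.7 and 7.19 in Fraction 6, and 6.33, 4.35 and 3.58 in Fraction 7. Its fall of 0.93 in Fraction 7 against Fraction 5 (adjusted p = 0.0166) was lost without Fraction 5 library 2 or Fraction 7 library 3, and without Fraction 7 libraries 2 and 3 together.

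Nup98, whose transcript also encodes Nup96 of the Y complex, was among the steadier members. It had 14.1, 15.3 and 12.9 FPKM in LZ, 17.1 and 16.7 in Fraction 2, 13.5, 16.7 and 13 in Fraction 3, 11.1, 11.2 and 10.8 in Fraction 5, 11.7 and 11.3 in Fraction 6, and 12.5, 11.1 and 9.66 in Fraction 7. It fell by 0.57 in Fraction 5 against Fraction 2 (adjusted p = 0.00108). Its falls of 0.35 in Fraction 5 against Fraction 3 (adjusted p = 0.0207) and 0.32 in Fraction 7 against LZ (adjusted p = 0.0134) were each lost when single libraries were left out, the first without Fraction 3 library 2 or Fraction 5 library 1 or 3, the second without LZ library 2 or Fraction 7 library 3. The second was also lost under quantile normalization (adjusted p = 0.101).

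On the cytoplasmic face, Nup88 and its partner Nup214 both fell in Fraction 7 against LZ, by 0.98 and 0.34. Both nuclear basket members fell in that comparison as well. So did 38.0% of all tested genes, and roles of 2 members cannot be set apart from that share. Nup50, which helps release cargo from importin alpha, had 31.7, 29.9 and 31.3 FPKM in LZ, 37.3 and 39 in Fraction 2, 35.1, 33.3 and 32.6 in Fraction 3, 26.2, 27.9 and 23.7 in Fraction 5, 19.5 and 18.6 in Fraction 6, and 16.7, 14.3 and 13 in Fraction 7. It fell by 0.43 in Fraction 6 against Fraction 5 (adjusted p = 0.00566), a call lost without Fraction 6 library 2. A pseudogene copy of Nup50 in the table, 1700123L14Rik, reached at most 0.043 FPKM. Nup153, the basket's FG nucleoporin, had 30.5, 29.1 and 31.1 FPKM in LZ, 35.5 and 33 in Fraction 2, 30.03, 31 and 28.1 in Fraction 3, 24.8, 25.5 and 25 in Fraction 5, 25.8 and 25.5 in Fraction 6, and 23.5, 21.5 and 18.4 in Fraction 7. It fell by 0.50 in Fraction 7 against LZ (adjusted p = 7e-05). Its falls of 0.23 in Fraction 5 against Fraction 3 (adjusted p = 0.0367) and 0.27 in Fraction 7 against Fraction 6 (adjusted p = 0.0386) were lost without each of 5 and 4 single libraries, the second also without Fraction 7 libraries 2 and 3 (adjusted p = 0.414), and under quantile normalization (adjusted p = 0.259 and 0.0662).

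Nup210, a membrane-spanning nucleoporin known for changing with differentiation in other cell types, departed from the scaffold. It had 61.3, 56.2 and 53.8 FPKM in LZ, 70.3 and 71.5 in Fraction 2, 55.8, 56.2 and 52.8 in Fraction 3, 51.8, 53.5 and 50.4 in Fraction 5, 57.4 and 52.7 in Fraction 6, and 54.9, 50.2 and 43.6 in Fraction 7. Only Fraction 2 stood apart from all other gates. The gene fell by 0.44 in Fraction 5 against Fraction 2 (adjusted p = 0.00103), and its change of -0.08 in Fraction 5 against Fraction 3 did not pass (adjusted p = 0.478). Its fall of 0.20 in Fraction 7 against LZ (adjusted p = 0.0353) was lost without LZ library 1 or 2 or Fraction 7 library 2 or 3, and its direction turned under quantile normalization, at 0.17. With the others lower, Nup210 was the member with the highest mean in Fraction 6 (55.0 FPKM) and Fraction 7 (49.6 FPKM), whereas Kpna2 led in the other gates. Its paralogue Nup210l lay between 0.46 and 1.43 FPKM and passed in no comparison.

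**Figure D4:**
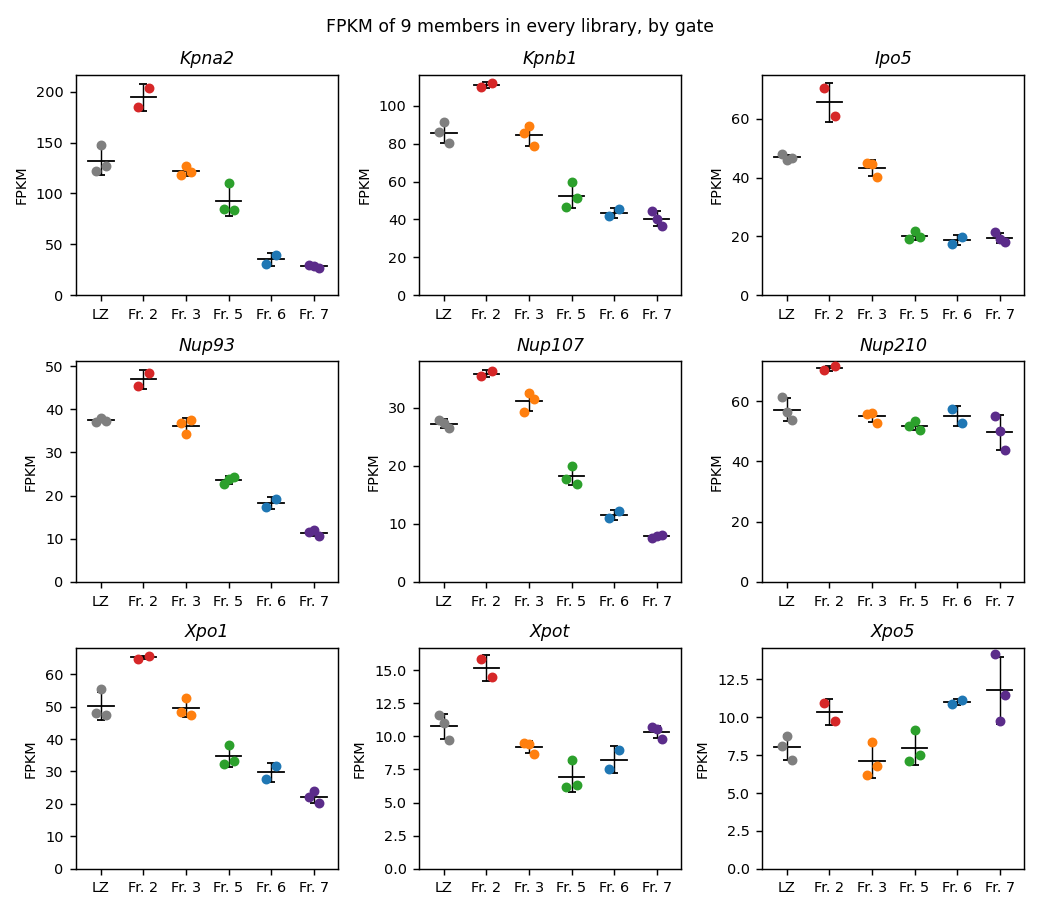
Points give the FPKM of 9 members in each library, with gates on the horizontal axis, long lines for the gate mean and error bars for 1 SD. Kpna2, Nup93 and Nup107 step down through Fractions 5, 6 and 7, Nup210 stays between 43.6 and 71.5 FPKM, and Xpo5 has its highest mean in Fraction 7.

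Among the importin alpha adaptors, Kpna2 had the largest fall of a member in Fraction 6 against Fraction 5, in Fraction 7 against LZ and in Fraction 7 against Fraction 5. Kpna2, an adaptor that is abundant in many dividing cells, had 122, 148 and 127 FPKM in LZ, 185 and 204 in Fraction 2, 118, 127 and 121 in Fraction 3, 84.4, 111 and 83.8 in Fraction 5, 30.5 and 39.7 in Fraction 6, and 29.2, 28.4 and 26.8 in Fraction 7. The gap between Fractions 5 and 6 was wide, and Fractions 6 and 7 did not overlap. It fell by 1.38 in Fraction 6 against Fraction 5 (SE 0.13, adjusted p = 7.38e-06), by 1.68 in Fraction 7 against Fraction 5 (SE 0.12, adjusted p = 5.21e-08) and by 2.19 in Fraction 7 against LZ (SE 0.12, adjusted p = 2.02e-09). Its change in Fraction 7 against Fraction 6 was -0.30 (adjusted p = 0.126). Its rise of 0.67 in Fraction 2 against Fraction 3 (adjusted p = 0.00484) was lost without Fraction 2 library 2 (adjusted p = 0.0556), and its fall of 0.40 in Fraction 5 against Fraction 3 (adjusted p = 0.0194) was lost without Fraction 3 library 2 or Fraction 5 library 1 or 3 and under quantile normalization (adjusted p = 0.16). RefSeq lists a pseudogene copy, Kpna2-ps, which is not analysed here, so reads shared with it could have been counted for Kpna2.

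The other adaptors moved less, and the make-up of importin alpha mRNA changed with the gate. Kpna4 had 24, 26.1 and 24.9 FPKM in LZ, 33.4 and 32.6 in Fraction 2, 26.5, 28.4 and 24.9 in Fraction 3, 22.5, 24.8 and 23.2 in Fraction 5, 24.5 and 22.9 in Fraction 6, and 26.3, 23.1 and 20.7 in Fraction 7. Kpna3, Kpna6 and Kpna1 fell by 0.90, 0.42 and 0.31 in Fraction 7 against LZ, where the change of Kpna4 was -0.10 and did not pass. Kpna2 made up 65.5% ± 1.75 of summed importin alpha FPKM in LZ, 69.5% ± 1.28 in Fraction 2, 63.4% ± 0.39 in Fraction 3, 61.2% ± 2.18 in Fraction 5, 38.7% ± 4.44 in Fraction 6 and 34.8% ± 1.46 in Fraction 7 (SD). Kpna4 made up 28.8% ± 1.04 in Fraction 7, against 12.4% ± 0.48 in LZ. The share of Kpna2 in the 2 Fraction 6 libraries, 35.5% and 41.8%, lay below every Fraction 5 library (59.5% to 63.7%).

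**Figure D5:**
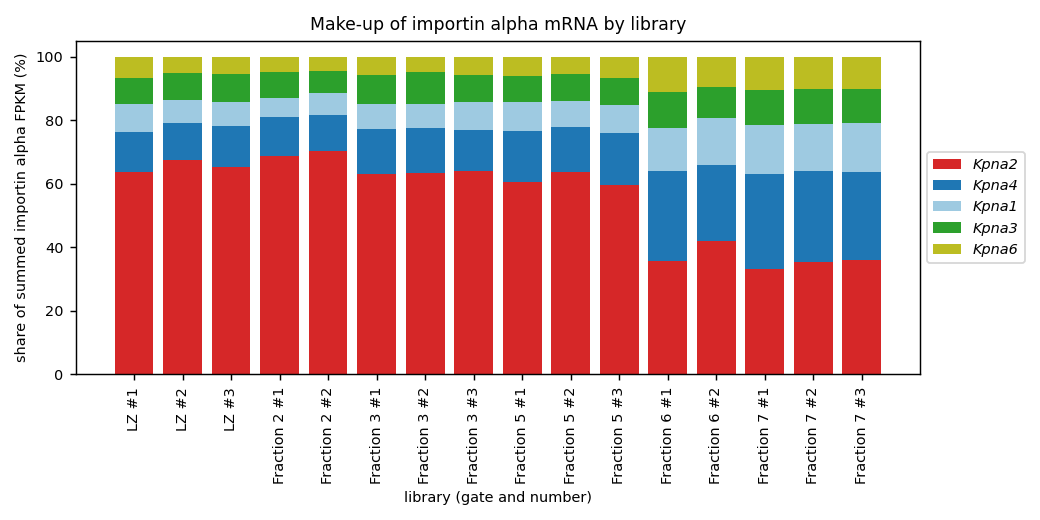
Stacked bars give each importin alpha gene's share, in percent, of their summed FPKM in each of the 16 libraries. The share of Kpna2 is between 59.5% and 70.4% in all LZ, Fraction 2, Fraction 3 and Fraction 5 libraries and between 33.1% and 41.8% in Fractions 6 and 7.

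The 250 bases before a RefSeq start of Kpna2 and of Nup93, the members with the largest falls into Fraction 6 and Fraction 7, and of Xpot, which went against them between Fractions 5 and 7, are shown because these genes take different courses over the same gates. Capitals mark CACGTG (the E-box bound by Myc and related factors), CCAAT (bound by NF-Y) and TTTGAA (a core of the cell cycle element CHR), searched on both strands, so that CCAAT can also read ATTGG and TTTGAA can read TTCAAA. The windows are in GRCm38.p6, at chr11:106999526-106999775 on the minus strand for Kpna2, chr8:94214314-94214563 on the plus strand for Nup93 and chr10:121626333-121626582 on the minus strand for Xpot, each written 5′ to 3′ along its gene.
Kpna2: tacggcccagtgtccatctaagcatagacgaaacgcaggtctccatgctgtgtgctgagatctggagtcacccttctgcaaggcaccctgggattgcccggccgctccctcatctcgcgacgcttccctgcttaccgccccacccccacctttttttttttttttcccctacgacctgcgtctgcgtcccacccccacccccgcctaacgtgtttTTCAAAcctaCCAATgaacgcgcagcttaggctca
Nup93: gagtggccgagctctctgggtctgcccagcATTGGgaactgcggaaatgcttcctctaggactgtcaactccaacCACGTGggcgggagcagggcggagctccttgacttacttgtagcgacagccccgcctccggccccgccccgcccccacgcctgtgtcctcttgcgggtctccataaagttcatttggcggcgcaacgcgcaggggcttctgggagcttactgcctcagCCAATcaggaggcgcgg
Xpot: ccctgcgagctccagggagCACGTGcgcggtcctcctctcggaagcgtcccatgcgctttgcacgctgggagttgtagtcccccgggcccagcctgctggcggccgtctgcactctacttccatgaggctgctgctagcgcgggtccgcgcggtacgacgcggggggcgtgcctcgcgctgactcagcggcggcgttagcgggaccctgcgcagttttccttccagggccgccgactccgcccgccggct
Kpna2 had TTTGAA starting 35 bases and CCAAT 25 bases before the start, Nup93 had an E-box at 175 bases and CCAAT at 220 and 17 bases, and Xpot had an E-box at 231 bases. Nup93 has 2 RefSeq windows, and the one shown was chosen because it holds an E-box. The E-box was in 6 member windows of 6 genes, so the other Nup93 window holds none. Windows were at hand for 33 members, some with more than 1 start. The E-box was in 15.0% of 40 member windows (Ipo7, Nup188, Nup54, Nup93, Tnpo2 and Xpot) and in 6.02% of all 32851 windows. CCAAT was in 47.5% and 33.9%, and TTTGAA in 17.5% and 15.99%. All windows also take in genes below the FPKM minimum, so these shares come from unlike sets. A match of letters is no evidence of binding.

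In the importin beta family, 5 of 11 members rose in Fraction 2 against Fraction 3, 8 fell in Fraction 5 against Fraction 3, 9 fell in Fraction 5 against Fraction 2, and 7 fell in Fraction 7 against LZ. Among all tested genes, 9.17% rose in the first comparison, and 19.5%, 27.1% and 38.0% fell in the others in turn. Kpnb1, the importin that works with the alpha adaptors, had 86, 91.5 and 80.3 FPKM in LZ, 109.9 and 112 in Fraction 2, 85.5, 89.5 and 78.5 in Fraction 3, 46.5, 59.6 and 51.1 in Fraction 5, 41.7 and 45.4 in Fraction 6, and 44.3, 40.03 and 36.5 in Fraction 7. It fell by 0.68 in Fraction 5 against Fraction 3 (adjusted p = 0.000153). Its changes of -0.25 in Fraction 6 against Fraction 5 (adjusted p = 0.121) and -0.11 in Fraction 7 against Fraction 6 (adjusted p = 0.508) did not pass, though the first passed without Fraction 5 library 1 (adjusted p = 0.0499). Across both steps, in Fraction 7 against Fraction 5, Kpnb1 fell by 0.37 (adjusted p = 0.00558). That call held whichever single library was left out, and was lost without Fraction 7 libraries 2 and 3 (adjusted p = 0.19) and under quantile normalization (adjusted p = 0.0703). Its rise of 0.39 in Fraction 2 against Fraction 3 (adjusted p = 0.0245) was lost without either Fraction 2 library or Fraction 3 library 3.

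Ipo5, a carrier of ribosomal proteins and histones, showed its whole fall at the step into Fraction 5. It had 47.9, 46.1 and 46.7 FPKM in LZ, 70.4 and 60.9 in Fraction 2, 44.9, 44.6 and 40.1 in Fraction 3, 19.2, 21.8 and 19.7 in Fraction 5, 17.4 and 19.9 in Fraction 6, and 21.3, 18.9 and 18.1 in Fraction 7. The 3 CD38+ gates overlapped. Ipo5 fell by 1.06 in Fraction 5 against Fraction 3 (SE 0.08, adjusted p = 3.42e-06) and by 1.23 in Fraction 7 against LZ (SE 0.08, adjusted p = 2.11e-08), and rose by 0.59 in Fraction 2 against Fraction 3 (SE 0.09, adjusted p = 0.00181). Its changes in Fraction 6 against Fraction 5 and in Fraction 7 against Fraction 6 were -0.11 and 0.06 and did not pass.

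Ipo4 fell and then returned in part. It had 15.5, 13.9 and 10.6 FPKM in LZ, 21.2 and 19.9 in Fraction 2, 10.03, 9.57 and 7.81 in Fraction 3, 6.44, 5.7 and 4.83 in Fraction 5, 9.48 and 9.23 in Fraction 6, and 9.6, 7.43 and 9.84 in Fraction 7. Every Fraction 6 and Fraction 7 library lay above every Fraction 5 library. It fell by 1.70 in Fraction 5 against Fraction 2 (SE 0.16, adjusted p = 2.5e-06) and rose by 0.58 in Fraction 7 against Fraction 5 (SE 0.14, adjusted p = 0.00418). The rise of 0.64 in Fraction 6 against Fraction 5 (adjusted p = 0.012) was lost without either Fraction 6 library, at adjusted p of 0.0846 and 0.067. Ipo11 had 7.28, 8.31 and 7.29 FPKM in LZ, 10.6 and 11.7 in Fraction 2, 8.53, 7.64 and 6.72 in Fraction 3, 3.58, 5.09 and 3.29 in Fraction 5, 4.25 and 4.13 in Fraction 6, and 4.14, 5.75 and 3.27 in Fraction 7, and fell by 0.80 in Fraction 5 against Fraction 3 (adjusted p = 0.00211).

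For the transportins Tnpo1, Tnpo2 and Tnpo3, the ratio of the highest to the lowest gate mean was 1.69, 1.44 and 1.77. These ratios lay below those of Ipo4, Ipo5 and Ipo11 (3.64, 3.52 and 2.80) and above those of Ipo8 and Ipo13 (1.13 and 1.22). Tnpo1, which carries RNA-binding proteins into the nucleus, had 25, 26.9 and 24.9 FPKM in LZ, 35.6 and 34.4 in Fraction 2, 28.2, 28.4 and 23.3 in Fraction 3, 21.3, 21.8 and 19 in Fraction 5, 23 and 22.5 in Fraction 6, and 26, 22.1 and 19.1 in Fraction 7. It fell by 0.73 in Fraction 5 against Fraction 2 (adjusted p = 0.000176), and in Fraction 7 against LZ its change was -0.19 (adjusted p = 0.118). Its rise of 0.39 in Fraction 2 against Fraction 3 (adjusted p = 0.0359) was lost without either Fraction 2 library or Fraction 3 library 3, and its fall of 0.34 in Fraction 5 against Fraction 3 (adjusted p = 0.0225) without Fraction 3 library 1 or 2 or Fraction 5 library 3 and under quantile normalization (adjusted p = 0.126). Tnpo3, an importer of splicing factors, fell by 0.57 in Fraction 7 against LZ, and Tnpo2, Ipo8 and Ipo13 did not pass there, at -0.13, -0.16 and 0.16. Ipo7 and Ipo9, both known as importers of ribosomal proteins among other cargo, fell by 0.90 and 0.29 in that comparison.

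Of 6 exportins in Fraction 7 against LZ, Xpo1, Xpo4 and Xpo7 fell, Xpo5 rose, and Xpot and Xpo6 did not pass. Among all tested genes, 38.0% fell and 24.1% rose there, so this split lay near that of all genes. Xpo1 (CRM1), the receptor for leucine-rich export signals, had 48, 55.3 and 47.5 FPKM in LZ, 64.8 and 65.5 in Fraction 2, 48.4, 52.5 and 47.3 in Fraction 3, 32.3, 38.2 and 33.4 in Fraction 5, 27.6 and 31.7 in Fraction 6, and 22, 24.1 and 20.2 in Fraction 7. It fell by 0.50 in Fraction 5 against Fraction 3 (adjusted p = 0.000918) and by 1.15 in Fraction 7 against LZ (adjusted p = 8.05e-08). Its fall of 0.41 in Fraction 7 against Fraction 6 (adjusted p = 0.0093) was lost without Fraction 6 library 2 (adjusted p = 0.132), without both Fraction 7 libraries 2 and 3 (adjusted p = 0.0514) and in a fit to those 2 gates alone (adjusted p = 0.0736). Its rise of 0.39 in Fraction 2 against Fraction 3 (adjusted p = 0.0183) was lost without either Fraction 2 library or Fraction 3 library 3. Xpo4 and Xpo7 fell by 0.49 and 0.35 in Fraction 7 against LZ.

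Xpot and Xpo5, the exporters of transfer RNA and of microRNA precursors, went the other way among the CD38+ gates. Xpot had 11.6, 11 and 9.74 FPKM in LZ, 15.8 and 14.5 in Fraction 2, 9.49, 9.38 and 8.68 in Fraction 3, 6.19, 8.2 and 6.35 in Fraction 5, 7.49 and 8.94 in Fraction 6, and 10.7, 10.5 and 9.82 in Fraction 7. It rose by 0.66 in Fraction 2 against Fraction 3 (SE 0.12, adjusted p = 0.00274) and by 0.53 in Fraction 7 against Fraction 5 (SE 0.10, adjusted p = 0.000792), and its Fraction 7 and LZ libraries overlapped, with a change of -0.05 (adjusted p = 0.692). Its fall of 0.37 in Fraction 5 against Fraction 3 (adjusted p = 0.0153) was lost without Fraction 3 library 1 or Fraction 5 library 1 or 3.

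Xpo5 had 8.09, 8.75 and 7.17 FPKM in LZ, 10.9 and 9.76 in Fraction 2, 6.19, 8.37 and 6.8 in Fraction 3, 7.13, 9.17 and 7.53 in Fraction 5, 10.9 and 11.2 in Fraction 6, and 14.1, 9.72 and 11.5 in Fraction 7. All Fraction 7 libraries lay above all LZ and Fraction 5 libraries. It rose by 0.49 in Fraction 7 against LZ (SE 0.14, adjusted p = 0.00593) and by 0.51 in Fraction 7 against Fraction 5 (SE 0.14, adjusted p = 0.00703). Xpo6, the exporter of actin, was steady by comparison, with 31.8, 34.2 and 30.8 FPKM in LZ, 31.9 and 33.1 in Fraction 2, 31.8, 33.1 and 31 in Fraction 3, 28.5, 34.3 and 32.3 in Fraction 5, 35.6 and 37.4 in Fraction 6, and 40.5, 34.5 and 35.5 in Fraction 7. Its change of 0.18 in Fraction 7 against LZ did not pass. Its rise of 0.21 in Fraction 7 against Fraction 5 (adjusted p = 0.0391) was lost when Fraction 5 library 1 or 3 or Fraction 7 library 1 was left out.

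Genes of the same pathway under other symbols were described from lists of pore proteins, the Ran cycle and mRNA export. Of 12 other pore proteins, 2 rose and 0 fell in Fraction 2 against Fraction 3, 9 fell in Fraction 5 against Fraction 3, 11 in Fraction 5 against Fraction 2, 2 in Fraction 6 against Fraction 5, 2 in Fraction 7 against Fraction 6 and 9 in Fraction 7 against LZ, and none rose in those 5. In Fraction 7 against Fraction 5, 1 rose and 7 fell. Of all tested genes, 9.17% rose in Fraction 2 against Fraction 3 and 19.1% in Fraction 7 against Fraction 5. The shares of all tested genes that fell were 19.5%, 27.1%, 10.4%, 13.9%, 38.0% and 28.5% in the 6 comparisons after the first, so the count of 2 of 12 in each of the steps to Fraction 6 and to Fraction 7 lay near that of all genes. Ndc1, a membrane protein needed for pore assembly that the table lists as Tmem48, had 2.61, 2.56 and 2.35 FPKM in Fraction 7, against 27.4, 28.9 and 29.8 FPKM in LZ. It fell by 3.08 (SE 0.10, adjusted p = 3.04e-11), which is further than any of the 43 members. Tpr, the main protein of the nuclear basket, changed by -0.10 in that comparison (adjusted p = 0.343), with 44.5, 41.5 and 36.2 FPKM in Fraction 7 and 45.3, 43.6 and 41.7 FPKM in LZ.

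Of 11 genes of the Ran cycle and cargo adaptors, 6 rose in Fraction 2 against Fraction 3, 8 fell in Fraction 5 against Fraction 3, 9 in Fraction 5 against Fraction 2, and 4 in each of the steps to Fraction 6 and to Fraction 7. Against LZ, 7 fell in Fraction 7 and 1 rose, and against Fraction 5, 6 fell and 2 rose. Of all tested genes, 9.17% rose in Fraction 2 against Fraction 3, and 19.5%, 27.1%, 10.4%, 13.9%, 38.0% and 28.5% fell in the later comparisons in turn. Rises made up 24.1% of all genes in Fraction 7 against LZ and 19.1% against Fraction 5. The counts of 1 and 2 rises lay below and near those shares. Ran, the GTPase that gives transport its direction, had 48.8, 54.3 and 52 FPKM in Fraction 7 against 209, 220.1 and 211 FPKM in LZ, and fell by 2.02 (SE 0.08, adjusted p = 1.91e-10). Rcc1, its exchange factor, fell by 2.14, and Rangap1, the activator of its GTP hydrolysis, by 1.44. Cse1l, the exportin that returns importin alpha to the cytoplasm, fell by 1.08. The gene that rose was Ranbp6, an importin of the beta family, at 8.42, 9.83 and 7.56 FPKM in Fraction 7 against 4.01, 5.12 and 4.35 FPKM in LZ (0.80, adjusted p = 4.8e-05).

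Of 19 mRNA export genes, 4 rose in Fraction 2 against Fraction 3, 10 fell in Fraction 5 against Fraction 3, 14 in Fraction 5 against Fraction 2, 5 in Fraction 6 against Fraction 5 and 15 in Fraction 7 against LZ. From these 19, 1 rose and 2 fell in Fraction 7 against Fraction 6, and 2 rose and 10 fell in Fraction 7 against Fraction 5. Of all tested genes, 9.17% rose in the first comparison, and 19.5%, 27.1%, 10.4% and 38.0% fell in the next 4 in turn. In Fraction 7, 7.37% rose and 13.9% fell against Fraction 6, and 19.1% rose and 28.5% fell against Fraction 5. The counts of 1 and 2 against Fraction 6, and of 2 rises against Fraction 5, lay near or below those shares. Alyref, an adaptor that loads mRNA for export, had 40.6, 38.5 and 42.7 FPKM in Fraction 7 against 159, 152 and 159 FPKM in LZ, and fell by 1.92 (adjusted p = 1.08e-09). Nxf1, the main mRNA export receptor, was the gene that rose in Fraction 7 against Fraction 6, with 65.7, 64.7 and 68 FPKM in Fraction 7 and 55.2 and 59.5 FPKM in Fraction 6 (0.20, adjusted p = 0.0351), and in Fraction 7 against LZ its change was 0.07 (adjusted p = 0.31).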

How the data were processed

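Messenger RNA was read from 16 libraries of sorted mouse B cells. The labels' protocols name TRIzol for RNA and a NEBNext Ultra library kit, which does not mark the strand, so reads of antisense genes that overlap a member could not be told apart. Per the submitters' processing notes, the deposited FPKM values come from TopHat2 2.0.8, Cufflinks 2.1.1 and mm9. The deposited table holds 1 row with no name, which was dropped. No pair of libraries shared more than 2 equal nonzero values. FPKM are not counts, so no count model was used, and intervals that need depth are not given.

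Values of genes that reached 1 FPKM in 2 or more libraries were set to log2(FPKM + 1) and fitted with limma 3.58.1 in R 4.3.3, with the 6 gates as means over all 16 libraries and a trend of variance on mean level. P-values were adjusted by Benjamini-Hochberg over 11266 genes within each comparison, with a threshold of 0.05. Members and lists were chosen with earlier results of these data known. Full values are given, per comparison, for up to 5 rises and 5 falls by size among members past the threshold whose groups do not overlap, and for a panel of 11 members (Nup93, Nup98, Nup107, Nup153, Nup210, Kpna2, Kpnb1, Ipo5, Tnpo1, Xpo1 and Xpot). Kpna4 was added after its values were seen. Of the other pathway genes, Ran, Rcc1, Rangap1, Cse1l, Tpr and Nxf1 and some of those past the threshold are named, and Ndc1, Ranbp6 and Alyref were picked from those after their values were seen. Promoter windows are RefSeq's, in GRCm38.p6, and no mm9 coordinates are given. Other settings tried were quantile normalization, scaling by median ratios, a pseudocount of 0.1, no filter and one of 5 FPKM, fits limited to the gates compared, a block for the replicate number, and leaving out each library. Software was Python 3.11.15, pandas 2.3.3, numpy 2.4.6 and matplotlib 3.10.9.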

Additional observations from a re-analysis of the deposited data

How the results depend on the processing

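The count of members called stayed within 1.5 times its value in 80 of 90 alternatives. With each library left out in turn it was 7 to 19 in Fraction 2 against Fraction 3, 24 to 30 and 35 to 38 in Fraction 5 against Fractions 3 and 2, 4 to 11 in Fraction 6 against Fraction 5, 3 to 7 in Fraction 7 against Fraction 6, 32 to 36 in Fraction 7 against LZ and 18 to 22 in Fraction 7 against Fraction 5. In Fraction 7 against Fraction 6, where it was 8, it was 5 with no filter on low values and 3 with a fit to those 2 gates alone. The count also fell without Fraction 7 libraries 2 and 3, an alternative chosen after the data were seen. Median-ratio scaling moved the median of all genes in Fraction 7 against LZ to 0.04, with a member median of -0.41 and 3 rises to 29 falls, and gave 3 to 9 in Fraction 6 against Fraction 5 and 1 to 6 in Fraction 7 against Fraction 6. The cause of these changes was not tested. With the replicate number as a block, counts were 17, 30, 37, 11, 7, 36 and 22 in the order of the report. Same-numbered libraries correlated in their deviations at -0.184 to 0.125, so no strong signal was shared by number. With 2 or 3 libraries a gate, this cannot show whether same-numbered libraries came from 1 pool.

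No change of sign passed the test under its alternative, and of the values that changed sign Nup210 in Fraction 7 against LZ was called as reported. Under quantile normalization these were Nup210 in Fraction 5 against Fraction 3 (0.088), Tnpo1 in Fraction 7 against Fraction 6 (0.050), Nup210, Tnpo1 and Xpot in Fraction 7 against LZ (0.167, 0.061 and 0.079), and Nup210 and Ipo5 in Fraction 7 against Fraction 5 (0.133 and 0.057). Under median-ratio scaling they were Nup98 and Tnpo1 in Fraction 7 against Fraction 6 (0.023 and 0.047), Xpot in Fraction 7 against LZ (0.103), and Nup210 and Ipo5 in Fraction 7 against Fraction 5 (0.031 and 0.045). With the replicate block they were Nup98 in Fraction 6 against Fraction 5 (-0.0031), and Nup98 and Tnpo1 in Fraction 7 against Fraction 6 (0.0040 and 0.037). Leaving out 1 library, or libraries 2 and 3 of Fraction 7, gave ranges across 0 in Fraction 7 against Fraction 6 for Nup98 (-0.137 to 0.116), Kpnb1 (-0.183 to 0.026), Ipo5 (-0.030 to 0.188) and Tnpo1 (-0.139 to 0.183). Such ranges were also found in Fraction 7 against LZ for Tnpo1 (-0.30 to 0.021), and in Fraction 7 against Fraction 5 for Nup98 (-0.083 to 0.170), Nup210 (-0.146 to 0.081), Ipo5 (-0.118 to 0.075) and Tnpo1 (-0.0056 to 0.316). Among changes of single members, 98 of 1312 alternatives lost a call with the same direction, 9 gained one and 30 changed sign, of which 1 (Nup210, above) also lost a call. Depth is unknown, and 2 libraries a gate limit every comparison with Fraction 2 or Fraction 6.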
